A study of Mus musculus with 3 samples.

Results

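The measurements concern 10 genes of the antioxidant defence in single cells of the mouse diaphragm, chosen by gene symbol from the 32285 genes in the files. They comprise 6 genes known as targets of the transcription factor NRF2 (*Nqo1*, *Hmox1*, *Gclc*, *Gclm*, *Txnrd1* and *Srxn1*), the superoxide dismutases *Sod1*, *Sod2* and *Sod3*, and *Gpx3*, which encodes a secreted glutathione peroxidase. All 10 symbols were found, each once. They were chosen by name and pathway role, with earlier results of these data known.

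Single-cell RNA-Seq was performed on mononuclear cells from costal diaphragms of male mice after 6 months of feeding. The WT CD library came from C57BL/6J mice on control diet (CD), the WT HFD library from C57BL/6J mice on a high-fat diet (HFD) with 45% of its energy as lipid, and the KO HFD library from whole-body *Thbs1*-/- mice (B6.129S2-Thbs1tm1Hyn/J) on the same HFD. *Thbs1* encodes the matricellular protein thrombospondin-1, and the study asked how HFD and loss of *Thbs1* altered fibro-adipogenic progenitors (FAPs), a stromal population of muscle known as a source of fat and scar tissue. Each group was 1 library of pooled animals with no CD-fed KO library, the knockout was present in every tissue throughout life, and collagenase digestion and straining do not recover intact myofibers or adipocytes.

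The libraries held 4132, 3774 and 4369 cell barcodes with 34312860, 31967976 and 36478779 unique molecular identifiers (UMIs), always given in the order WT CD, WT HFD and KO HFD. Median UMIs per barcode were 7632.5, 8041.5 and 7554. WT CD shared 7 barcodes with WT HFD and 7 with KO HFD, and the HFD libraries shared 2. *Thbs1* itself was counted at 136, 202 and 163 CPM (UMIs of the gene per 1000000 UMIs of the cells summed) over all cells and at 193, 232 and 229 CPM in FAPs. The KO library was therefore not low in *Thbs1* UMIs over these sums. In macrophage-like cells the level was 105, 352 and 75.2 CPM and in a FAP state named by *Postn* and *Sfrp4* 88.9, 129 and 59.9 CPM, with KO HFD lowest in both. Within macrophage-like clusters, described below, *Thbs1* was at 17.6, 13.0 and 22.5 CPM (Folr2/Cd209f) and at 85.3, 72.8 and 54.1 CPM (Mmp12/Retnla). The remaining cluster, Saa3/Alox15, held 8, 56 and 14 cells. The part of this cluster mixture in the macrophage-like level was not tested. In some other groups KO HFD lay above WT HFD. The level was 8.53, 1.37 and 22.1 CPM in B-like, 19.9, 2.22 and 48.6 CPM in dendritic-like and 35.2, 10.6 and 37.4 CPM in endothelial-like cells. *Dcn*, an abundant FAP gene, had the same order of libraries there, with 483, 290 and 683 CPM, 824, 276 and 1596 CPM, and 1103, 710 and 1481 CPM. In the larger B-like cluster, Ms4a1/Cd79a, *Thbs1* was at 5.37, 1.54 and 3.17 CPM, from 16, 2 and 2 UMIs. The part of FAP RNA in these *Thbs1* levels was not tested. In a FAP state named by *C4b* and *Col6a5* it was 228, 186 and 318 CPM. The counts are 3′ tags, and whether the counted end lies outside the disrupted part of the gene was not tested, so these counts do not check the genotype.

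NRF2 (encoded by *Nfe2l2*) is held in the cytoplasm and marked for degradation by KEAP1. Oxidants and electrophiles modify KEAP1, NRF2 then reaches the nucleus, pairs with small MAF proteins and binds antioxidant response elements near its targets. The targets make and recycle glutathione and thioredoxin, reduce quinones and break down heme. In skeletal muscle these enzymes are known for limiting damage from the oxidants that contraction, inflammation and lipid excess produce. Superoxide dismutases convert superoxide to hydrogen peroxide in the cytosol (*Sod1*), mitochondria (*Sod2*) and extracellular space (*Sod3*), and glutathione peroxidases reduce the peroxide.

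The RefSeq promoter table (GRCm38.p6, 250 bases before to 50 bases after each start site) held windows for 7 of the 10 genes and had no entry for *Hmox1*, *Gclc* or *Sod3*. Core letters of the antioxidant response element were searched on both strands as TGACNNNGC and TGAGNNNGC. At least 1 match lay in 4 of the 9 windows of these genes, each of a different gene, against 27.8% of all 32851 windows (12.4% for TGACNNNGC and 17.6% for TGAGNNNGC). *Srxn1*, which encodes sulfiredoxin, the enzyme that restores overoxidized peroxiredoxins, had 3 matches, and 0.630% of all windows held at least as many. They began 158 and 45 bases before the start site and 29 bases after it. The match at 45 bases also holds TGANTCA, the AP-1 motif, which occurs in 7.81% of windows. *Gclm*, which encodes the modifier subunit of glutamate-cysteine ligase, had 1 match 134 bases before its start. *Txnrd1* had 1 match in 1 of its 3 windows, 92 bases before that start, and *Sod1* had 1 at 56 bases. The *Nqo1*, *Sod2* and *Gpx3* windows held none, which says only that these letters are not in them. The 250 bases before the start are shown for the gene with most matches and for *Gclm*, with matches in capitals, read on the strand of the gene.
Srxn1, chr2:152105274-152105523, plus strand: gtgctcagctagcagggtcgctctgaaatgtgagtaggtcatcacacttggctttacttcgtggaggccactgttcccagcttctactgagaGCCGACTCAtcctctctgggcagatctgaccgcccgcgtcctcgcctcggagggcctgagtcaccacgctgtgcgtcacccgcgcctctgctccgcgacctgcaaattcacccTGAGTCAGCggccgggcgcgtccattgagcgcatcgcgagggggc
Gclm, chr3:122245307-122245556, plus strand: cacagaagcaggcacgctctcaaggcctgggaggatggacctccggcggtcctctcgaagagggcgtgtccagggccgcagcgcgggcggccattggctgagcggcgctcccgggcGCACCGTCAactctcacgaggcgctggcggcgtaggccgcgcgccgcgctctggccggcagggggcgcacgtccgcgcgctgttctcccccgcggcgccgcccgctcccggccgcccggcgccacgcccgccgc

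In the GRCm38 annotation all 10 are protein-coding genes. The genes on the plus strand were *Hmox1* (chr8:75093621-75100589), *Gclc* (chr9:77754535-77794485), *Gclm* (chr3:122245557-122270732), *Txnrd1* (chr10:82833951-82897712), *Srxn1* (chr2:152105516-152111376), *Sod1* (chr16:90220754-90226329), *Sod2* (chr17:13006846-13040063), *Sod3* (chr5:52363791-52371418) and *Gpx3* (chr11:54902453-54910377). *Nqo1* (chr8:107388225-107403206) lies on the minus strand. *Gclm* overlaps the same-strand pseudogene *Gm6061* and *Txnrd1* overlaps *Eid3* on the same strand, so reads of these pairs may not be told apart in the overlap.

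Cells were grouped by clustering with the 10 genes and all other listed pathway genes left out, and clusters were called "like" a cell class from marker genes. FAP-like cells, hereafter FAPs, numbered 2241, 1995 and 2414, which is 54.2, 52.9 and 55.3% of barcodes. MuSC-like cells (muscle stem cells) numbered 418, 284 and 479, macrophage-like cells 233, 408 and 446, endothelial-like cells 311, 309 and 258, and lymphatic-like cells 66, 127 and 80. B-like cells fell into 2 clusters and numbered 438, 163 and 105, with median UMIs of 9360, 7382 and 5062, and their *Jchain*/*Igkc* cluster held 101, 7 and 11 of them. The counts of every class were summed per library and scaled to CPM.

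Each gene had its own distribution over classes. *Sod3* was at 205, 190 and 191 CPM in FAPs, which as the largest class held 93.6, 93.0 and 92.2% of its UMIs. Other stromal classes had *Sod3* too, with 176, 118 and 102 CPM in tenocyte-like, 115, 104 and 180 CPM in mural-like and 110, 98.7 and 88.8 CPM in mesothelial-like cells. The mural-like values rested on 8, 19 and 29 UMIs, and 1 KO HFD cell held 13 of the 29. *Gpx3* was high in FAPs, with 1141, 750 and 967 CPM, and in MuSC-like cells, with 1716, 1388 and 1238 CPM. Among small classes it was at 1198, 1101 and 772 CPM in tenocyte-like cells (21, 20 and 17 cells) and at 559, 147 and 945 CPM in mural-like cells (17, 29 and 27 cells). In the mural-like cells 1 cell held 26 of the 39 *Gpx3* UMIs of WT CD and 1 cell 50 of the 152 of KO HFD. Myofiber-like cells, of which there were 5, 28 and 25, had 2446, 440 and 232 CPM. This class is named from its marker set only. Its leading genes included *Myog* and *Mymk* beside *Acta1*, and intact myofibers were not recovered. FAPs held 83.4, 81.6 and 79.6% of *Gpx3* UMIs and MuSC-like cells 12.3, 13.0 and 14.6%. *Srxn1* was also mostly FAP RNA, with 85.4, 78.8 and 73.4% of its UMIs and 22.1, 24.5 and 24.3 CPM there.

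*Hmox1* encodes heme oxygenase-1, which opens the heme ring and releases iron. It was counted at 232, 221 and 248 CPM in macrophage-like cells (mean 234, SD 13.9 over the 3 libraries) and at 55.6, 51.9 and 52.9 CPM in FAPs. The macrophage-like cells thus had the higher level in every library, and they held 32.4, 44.7 and 40.9% of *Hmox1* UMIs against 55.0, 44.5 and 33.8% in FAPs. *Sod2* was at 255, 259 and 243 CPM in macrophage-like cells and at 67.8, 72.7 and 77.8 CPM in FAPs.

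*Txnrd1* encodes the cytosolic thioredoxin reductase. It was counted at 206, 178 and 223 CPM in MuSC-like cells, at 110, 109 and 142 CPM in dendritic-like cells and at 100, 102 and 97.3 CPM in macrophage-like cells. The MuSC-like values lay above those of every other class with at least 50 cells in each library, and the dendritic-like range lay just above that of the macrophage-like cells. *Sod1* was highest in endothelial-like cells, with 214, 237 and 235 CPM, and the range over libraries did not overlap that of the next class, the cycling-like cells (mean 133 CPM).

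*Nqo1* encodes NAD(P)H quinone dehydrogenase 1. It was close to undetected in most classes, with 2.43, 1.44 and 1.62 CPM in FAPs (48, 27 and 34 UMIs), but lymphatic-like cells had 15.3, 49.5 and 44.3 CPM. No *Nqo1* UMI was seen in B-like cells, which allows up to 0.569, 2.05 and 3.31 CPM there when a count of 0 is read as up to 3 counts of the total. A UMI of *Nqo1* was seen in 9.09, 27.6 and 23.8% of lymphatic-like cells, or 3.85, 14.0 and 13.0% once cells were thinned to 3000 UMIs. Median UMIs of these cells were 5097.5, 5804 and 5701.5.

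The glutamate-cysteine ligase subunits, which catalyze the first step of glutathione synthesis, were spread more evenly. *Gclm* was at 66.3, 60.3 and 68.3 CPM in lymphatic-like cells, 46.1, 52.1 and 65.1 CPM in endothelial-like cells and 44.8, 50.1 and 45.0 CPM in FAPs. *Gclc*, the catalytic subunit, was at 18.3, 19.5 and 19.1 CPM in FAPs and its highest class differed between libraries. Counting only classes with at least 50 cells in every library, 9 of the 10 genes had the same highest class in all 3 libraries, *Gclc* being the exception. With classes of fewer cells included the number was 3 (*Nqo1*, *Sod1* and *Sod3*). Classes were made from these same cells, so their order is a description and was not tested.

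**Figure D1:**
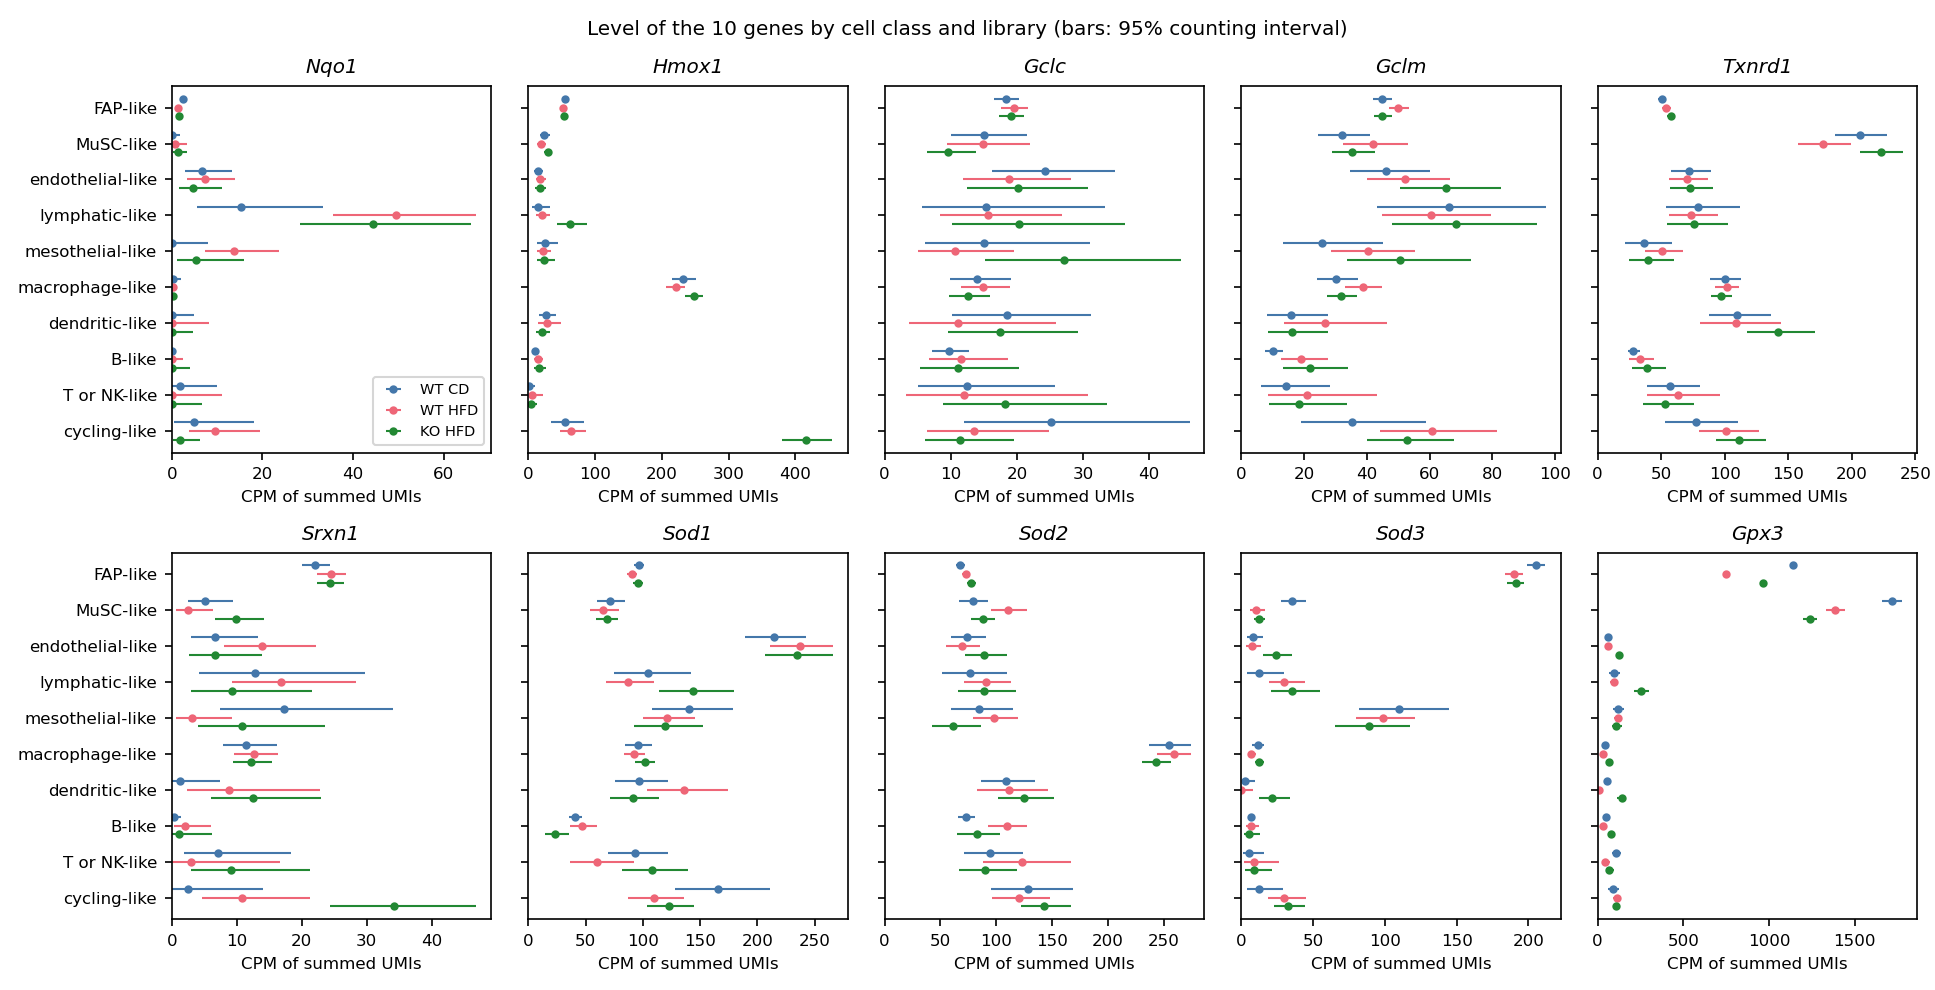
Level of each gene by cell class, with CPM of summed UMIs on the x axes (linear, a separate range for each gene), points for the 3 libraries and bars for 95% exact Poisson counting intervals. Among these 10 classes *Sod3* stood out in FAPs (205, 190 and 191 CPM), *Hmox1* and *Sod2* in macrophage-like cells, *Txnrd1* in MuSC-like cells, *Sod1* in endothelial-like cells and *Nqo1* in lymphatic-like cells, and the *Hmox1* point at 416 CPM in cycling-like cells of KO HFD came mostly from 1 cell.

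The diet comparison within FAPs turned on *Gpx3*. *Gpx3* was counted at 1141 CPM in WT CD, 750 CPM in WT HFD and 967 CPM in KO HFD, from 22541, 14083 and 20342 UMIs. The WT HFD library was lowest, WT CD highest and KO HFD between them, and no pair of counting intervals overlapped. The level was 1.52-fold lower in WT HFD than in WT CD (log2 ratio -0.61, 95% counting interval -0.64 to -0.58), and 1.29-fold higher in KO HFD than in WT HFD (log2 ratio 0.37, 0.34 to 0.40). The share of FAPs with a *Gpx3* UMI was 85.5, 74.6 and 81.9%, or 75.3, 62.8 and 70.7% after thinning to 3000 UMIs. In B-like cells it was 7.08, 5.52 and 4.76%, or 4.0, 1.99 and 5.68% after thinning. Median UMIs of the FAPs were 8421, 9144 and 8372.5.

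With 1 library per group there is no replicate error and no test. A gene was counted as higher or lower where 2 libraries differed by at least 1.5-fold, 1 of them reached 20 CPM, their 95% exact Poisson intervals did not overlap and both held at least 50 cells of the class. The intervals cover counting error only, not variation between mice or preparations. By this rule *Gpx3* was the 1 gene of the 8 measurable in FAPs that differed between WT HFD and WT CD, where 1.21% of 5773 genes did so in either direction and 0.624% were lower. In KO HFD against WT HFD 0 of 8 differed, where 0.689% of 5804 genes did. The *Gpx3* ratio was close to the threshold, and 4 of 9 other ways to scale, filter, sum or group the cells put it between 1.43-fold and just under 1.5-fold.

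The other genes of the group were nearly level in FAPs. *Sod3* was at 205, 190 and 191 CPM, a log2 ratio of -0.11 for HFD and 0.01 for KO HFD against WT HFD. *Sod1* was at 96.6, 90.3 and 95.8 CPM and *Sod2* at 67.8, 72.7 and 77.8 CPM, with log2 ratios between -0.10 and 0.10 in both comparisons.

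Of the NRF2 targets, *Hmox1* differed by log2 ratios of -0.10 (-0.22 to 0.03) and 0.03 (-0.10 to 0.15). *Gclm* was at 44.8, 50.1 and 45.0 CPM, with log2 ratios of 0.16 (0.03 to 0.29) and -0.16 (-0.29 to -0.02). *Txnrd1*, at 50.3, 54.2 and 57.9 CPM, gave 0.11 and 0.10. *Srxn1*, at 22.1, 24.5 and 24.3 CPM, gave 0.15 and -0.01. These ratios are well within 1.5-fold, and for *Hmox1* both counting intervals include 0.

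*Gclc* and *Nqo1* stayed under 20 CPM in FAPs and were not counted. The *Nqo1* log2 ratio was -0.76 (-1.49 to -0.05) for HFD, from few UMIs, and 0.17 (-0.60 to 0.95) for KO HFD against WT HFD. The 4 NRF2 targets measurable in FAPs had a median log2 ratio of 0.13 for HFD and 0.01 for KO HFD against WT HFD. All measurable genes of the FAPs had medians of 0.09 and -0.05, so the targets' medians lay near those of all genes.

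**Figure D2:**
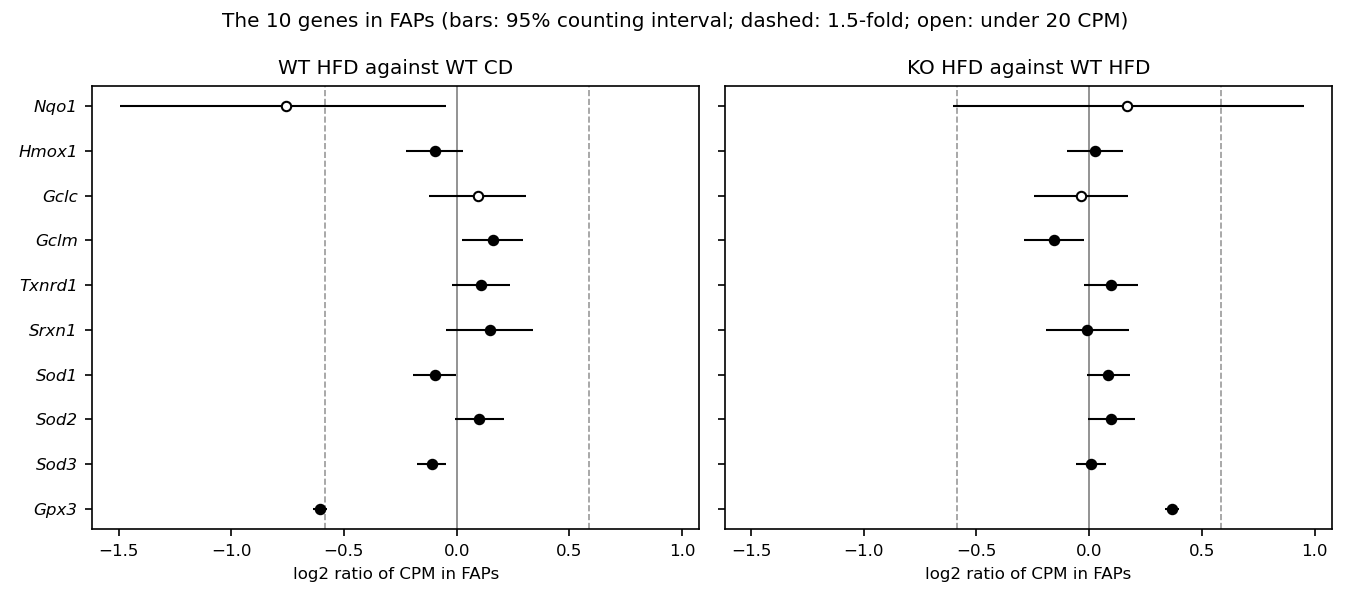
Log2 ratios of CPM in FAPs for the 10 genes, WT HFD against WT CD on the left and KO HFD against WT HFD on the right, with 95% counting intervals as bars, dashed lines at 1.5-fold and open points for genes under 20 CPM. *Gpx3* at -0.61 is the 1 filled point past a dashed line.

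RNA of other origin and of the preparation was measured in the same FAPs. The 14 genes of a dissociation stress list had a median log2 ratio of -0.29 for HFD and 0.34 for KO HFD against WT HFD, and their summed level was 16852, 14663 and 18084 CPM. WT HFD was thus the lowest library for these genes as well as for *Gpx3*. *Fos*, the most abundant of them, was at 4016, 3970 and 4639 CPM, while the heat shock genes *Hspa1a* (321, 158 and 226 CPM), *Hspa1b* (261, 120 and 172 CPM) and *Hspb1* (662, 381 and 488 CPM) were lower in WT HFD than in WT CD by the rule. Hemoglobin *Hbb-bs*, from red cells, was at 1.21, 26.8 and 1.81 CPM. The 4 adipocyte markers summed to 0.202, 0.213 and 2.04 CPM, led by *Adipoq*, with 2 of 4 at 0 in the WT libraries. The 4 myofiber markers summed to 26.6, 20.4 and 20.4 CPM, led by *Acta1* (13.2, 8.30 and 8.41 CPM). Red cells had been lysed during the isolation. The part of preparation stress or red cell RNA in the *Gpx3* result was not tested.

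The other genes of the pathway did not differ in FAPs by the rule in either comparison. This held for 0 of 10 measurable NRF2 regulators, 0 of 8 NADPH-supplying enzymes, 0 of 12 glutathione genes, 0 of 20 peroxidases and thioredoxin genes, 0 of 9 metal, iron and heme genes and 0 of 3 NADPH oxidase and related genes. As 1.21% and 0.689% of all measurable FAP genes differed in the comparisons, counts of 0 in lists of this size are near the share of all genes. The median log2 ratios of the 6 lists ranged from -0.03 to 0.16 for HFD and from -0.08 to 0.04 for KO HFD against WT HFD.

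The 3 genes with the highest mean level in each list are given to show the range. *Nfe2l2* was at 170, 178 and 182 CPM, *Rbx1*, a subunit of the ligase that marks NRF2, at 196, 203 and 190 CPM, and *Sqstm1*, the autophagy adaptor that binds KEAP1, at 131, 144 and 161 CPM. The pentose phosphate enzymes *Pgls* (134, 163 and 144 CPM), *Taldo1* (120, 119 and 112 CPM) and *Tkt* (73.7, 65.8 and 64.1 CPM) supplied the second list. For none of these 6 genes did any pair of libraries differ by 1.5-fold.

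In the glutathione list *Gstm1* was at 747, 722 and 667 CPM, *Mgst1* at 358, 354 and 350 CPM and *Esd* at 178, 183 and 177 CPM. Thioredoxin, *Txn1*, was at 660, 710 and 679 CPM, and the selenoprotein genes *Selenow* and *Selenop* were at 722, 710 and 716 CPM and at 571, 592 and 660 CPM. The ferritin chains *Fth1* (5913, 5466 and 5871 CPM) and *Ftl1* (4468, 4382 and 4515 CPM) store iron, and the metallothionein *Mt1* (1595, 1659 and 2134 CPM) binds zinc and copper. Of the oxidant-producing enzymes, *Cyba* was at 397, 359 and 355 CPM, *Xdh* at 86.9, 97.2 and 102 CPM and *Nox4* at 47.4, 63.9 and 58.2 CPM.

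FAPs were split into 5 states, named by leading genes. The Cxcl14/Gfra1 state carried the markers of the study's FAP1, the Cmah/Wnt10b state those of FAP2 and the Fmod/Sfrp2 state those of FAP4. The Cmah/Wnt10b state held 15.6, 20.9 and 15.8% of FAPs, the C4b/Col6a5 state 17.5, 14.5 and 21.2% and the Postn/Sfrp4 state 29.6, 28.0 and 22.7%. *Gpx3* was at 1877, 1502 and 1714 CPM in the C4b/Col6a5 state and at 446, 249 and 270 CPM in the Cmah/Wnt10b state. The state with most *Gpx3* was therefore 4.21-fold, 6.03-fold and 6.34-fold above the state with least. The share of the first state was lowest and that of the second highest in WT HFD, and with the 5 states weighted equally *Gpx3* was 1.43-fold lower in WT HFD than in WT CD.

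*Gpx3* was lower in WT HFD than in WT CD in each of the 5 states. It was at 1199, 819 and 856 CPM in the Postn/Sfrp4 state, at 1161, 653 and 1056 CPM in the Fmod/Sfrp2 state and at 1025, 779 and 859 CPM in the Cxcl14/Gfra1 state. By the rule it was lower in the Cmah/Wnt10b state (log2 ratio -0.84, -0.95 to -0.73, where 0.931% of genes were lower) and in the Fmod/Sfrp2 state (-0.83, -0.92 to -0.75, where 0.943% were lower). In KO HFD against WT HFD it was higher by the rule in the Fmod/Sfrp2 state alone (log2 ratio 0.69, 0.61 to 0.78, where 0.915% of genes were higher). There the KO HFD value was near that of WT CD, whereas in the Cmah/Wnt10b and Postn/Sfrp4 states it was near that of WT HFD. The difference between states was not tested.

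The remaining genes had other state patterns, and in no state did they differ by the rule between WT HFD and WT CD or between KO HFD and WT HFD. *Sod3* was at 285, 233 and 282 CPM in the Postn/Sfrp4 state, its highest in every library, and at 164, 140 and 135 CPM in the Fmod/Sfrp2 state. *Hmox1* was at 82.5, 93.1 and 63.7 CPM in the Cxcl14/Gfra1 state, at 78.7, 58.5 and 82.4 CPM in the C4b/Col6a5 state and at 32.5, 31.7 and 41.5 CPM in the Fmod/Sfrp2 state. The first of these states led in the WT libraries and the second in KO HFD.

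*Srxn1* was at 24.8, 30.4 and 38.7 CPM in the Cmah/Wnt10b state and between 15.6 and 26.8 CPM in the others. In the Cmah/Wnt10b state KO HFD was 1.56-fold above WT CD (96 UMIs in WT CD and 158 in KO HFD), between libraries that differ in both diet and genotype. The share of all genes that differed as much between these libraries was not computed, so the rule was not applied to this pair. *Sod2* was at 80.9, 84.3 and 94.2 CPM in the C4b/Col6a5 state and lowest in the Fmod/Sfrp2 state, at 58.6, 58.8 and 63.1 CPM. *Gclm* was highest in the Cxcl14/Gfra1 state, at 52.8, 68.4 and 53.2 CPM. A spread of at least 1.5-fold between states in every library was seen for 6 of the 10 genes (*Nqo1*, *Hmox1*, *Gclc*, *Txnrd1*, *Sod3* and *Gpx3*), for *Nqo1* from few UMIs.

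**Figure D3:**
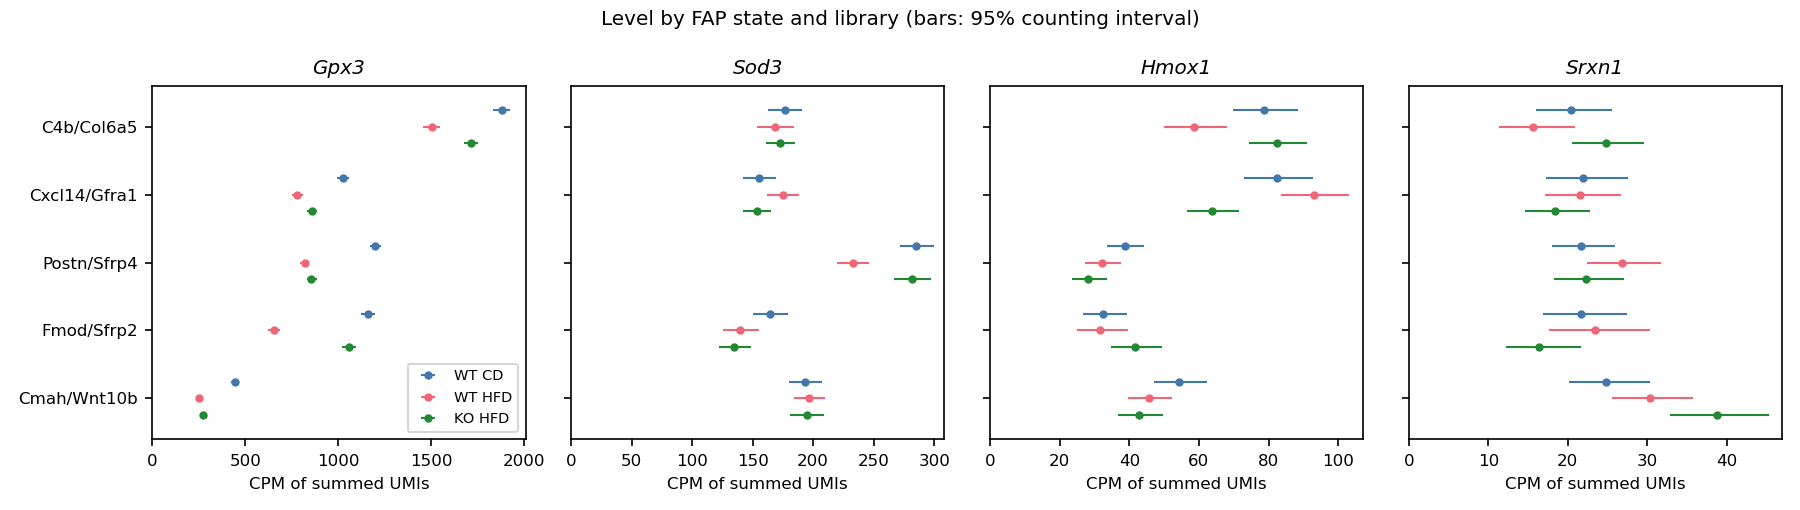
*Gpx3*, *Sod3*, *Hmox1* and *Srxn1* by FAP state, with CPM of summed UMIs on the x axes (linear), points for the 3 libraries and bars for 95% counting intervals. *Gpx3* of WT HFD lay below that of WT CD in each state, and the *Gpx3* level differed more between states (249 to 1502 CPM in WT HFD) than between libraries within a state.

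Outside FAPs, 42 pairs of a gene and a class were measurable for WT HFD against WT CD over 7 classes, of which 1 was higher and 4 were lower. Over all genes in the same classes 5.21% of such pairs were higher and 1.85% lower. For KO HFD against WT HFD 61 pairs were measurable over 9 classes, of which 11 were higher and 1 was lower. Over all genes in these classes 2.40% of pairs were higher and 2.30% lower. Many of the lower-level pairs rested on a few cells. FAP RNA was present in some cells of other classes, read from *Dcn*, an abundant FAP proteoglycan gene at 16429, 14254 and 15757 CPM in FAPs. Leaving out 203 cells with at least 10 *Dcn* UMIs, an alternative added after the values were seen, left 3 and 3 pairs. The 3 for diet then included *Gpx3* in lymphatic-like cells, which was not among the first 5. The pairs in cycling-like cells dropped out because 10 of the 50 WT HFD cells were left out and the class fell under 50 cells, while *Hmox1* there was at 77.7 against 468 CPM. The T or NK-like class of WT HFD, without 3 of its 51 cells, also fell under 50.

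*Gpx3* accounted for 3 of the 5 pairs for diet and 5 of the 12 for KO HFD against WT HFD. It was lower in WT HFD than in WT CD in B-like cells (49.8 to 31.4 CPM, where 2.24% of genes were lower), T or NK-like cells (107 to 42.0 CPM, 1.08%) and dendritic-like cells (54.4 to 8.89 CPM, 2.58%). It was higher in KO HFD than in WT HFD in 5 classes, namely B-like (80.5 CPM, where 2.44% of genes were higher), dendritic-like (140 CPM, 4.40%), endothelial-like (62.7 to 126 CPM, 2.12%), lymphatic-like (92.9 to 255 CPM, 2.30%) and macrophage-like cells (31.8 to 66.9 CPM, 2.46%). Without the *Dcn*-bearing cells *Gpx3* was at 13.1, 6.45 and 2.45 CPM in B-like cells and at 5.77, 6.89 and 17.2 CPM in dendritic-like cells. In T or NK-like cells it was then at 21.3, 0 and 30.2 CPM, where 0 UMIs give a counting interval up to 12.5 CPM. The T or NK-like cells left out had held 81.7% of these UMIs in WT CD and all 14 in WT HFD, of which 1 cell held 12. The 18, 3 and 5 B-like cells left out had held 76.0, 80.4 and 97.3% of the B-like *Gpx3* UMIs.

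In 2 classes the KO HFD value stayed above WT HFD by the rule without these cells. In endothelial-like cells it did not, because the intervals overlapped, but the values of 9.18, 18.4 and 36.9 CPM kept about the same ratio between the HFD libraries. *Gpx3* was then at 56.6, 21.8 and 117 CPM in lymphatic-like cells, now also lower in WT HFD than in WT CD (0.734% of genes were lower with all cells), and at 19.0, 14.8 and 24.0 CPM in macrophage-like cells. That lymphatic-like diet difference rested on 21 and 17 UMIs and barely met the rule. Its counting intervals began at 35.03 CPM in WT CD and reached 34.92 CPM in WT HFD. The cells left out had held 62.3% of the lymphatic-like and 66.9% of the macrophage-like *Gpx3* UMIs of KO HFD, and KO HFD remained the highest library in both classes. *Dcn* itself was at 477, 651 and 2268 CPM in lymphatic-like and at 564, 497 and 446 CPM in macrophage-like cells before these cells were removed. Whether *Gpx3* RNA below the limit of 10 *Dcn* UMIs came from FAPs was not tested.

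**Figure D4:**
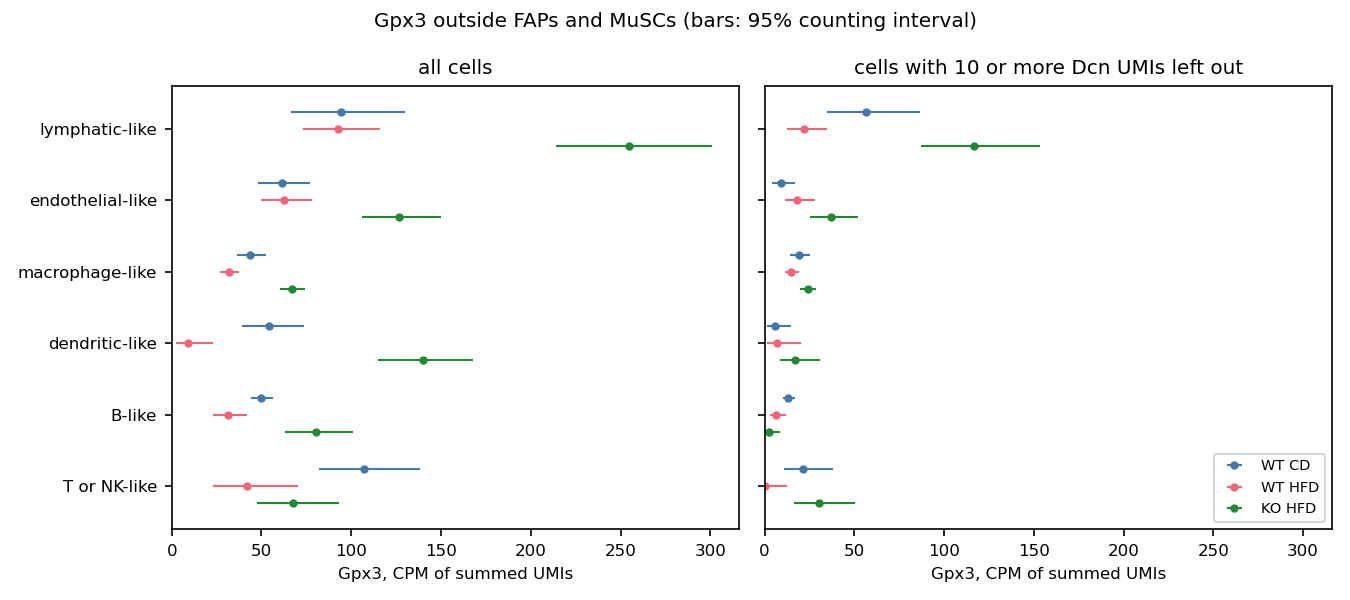
*Gpx3* in 6 classes outside FAPs and MuSC-like cells, with CPM of summed UMIs on the x axes (linear), for all cells on the left and without cells of at least 10 *Dcn* UMIs on the right, and 95% counting intervals as bars. The lymphatic-like value of KO HFD was 255 CPM with all cells and 117 CPM without those cells.

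In MuSC-like cells *Gpx3* was spread over nearly all cells, as 97.1, 93.7 and 96.2% of them had a UMI, and the *Dcn*-bearing cells held only 0.932, 0.933 and 2.31% of it. Their levels of 1716, 1388 and 1238 CPM gave log2 ratios of -0.31 (-0.38 to -0.23) for HFD and -0.17 (-0.24 to -0.09) for KO HFD against WT HFD. Unlike in FAPs, KO HFD was the lowest library here. That difference between the classes was not tested.

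*Sod3* in MuSC-like cells was at 35.6, 10.5 and 12.3 CPM, from 69, 17 and 37 UMIs. WT CD stood above both HFD libraries, and the log2 ratio for HFD was -1.76 (-2.62 to -0.98), where 1.89% of genes were lower. No single cell held more than 3 of these UMIs, and without the *Dcn*-bearing cells the level was 35.0, 10.0 and 10.3 CPM. *Dcn* was at 184, 109 and 246 CPM in MuSC-like cells. From WT CD to WT HFD it was lower together with *Sod3*, whereas KO HFD had the highest *Dcn* and a low *Sod3* level. The part of FAP RNA below the limit of 10 *Dcn* UMIs was not tested. A *Sod3* UMI was seen in 13.4, 5.63 and 6.68% of MuSC-like cells, or 10.2, 3.70 and 4.09% after thinning, at median UMIs of 4444, 5231.5 and 5595.

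In lymphatic-like cells *Nqo1* was 3.23-fold higher in WT HFD than in WT CD (log2 ratio 1.69, 0.45 to 3.22), where 2.26% of genes were higher. It rested on 6 UMIs in WT CD against 41 in WT HFD and 24 in KO HFD, and the pair no longer met the rule with TMM scaling. *Sod1* in the same cells was at 105, 86.9 and 144 CPM, with a log2 ratio of 0.73 (0.25 to 1.21) for KO HFD against WT HFD. It did not meet the rule with the mean over cells in place of summed counts. *Hmox1* was at 15.3, 20.5 and 62.8 CPM, but without the *Dcn*-bearing cells at 16.2, 21.8 and 42.7 CPM, where the intervals of the HFD libraries overlapped.

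*Sod1* in B-like cells was lower in KO HFD than in WT HFD (41.1, 47.1 and 23.2 CPM, log2 ratio -1.02, -1.80 to -0.30), where 4.04% of genes were lower. All measurable genes of these cells had a median log2 ratio of -0.19 in this comparison and of 0.39 in the diet comparison. This pair no longer met the rule without the *Jchain*/*Igkc* cluster, without the *Dcn*-bearing cells, with TMM scaling or with cells gated on marker UMIs. Without the *Dcn*-bearing cells the values were 41.6, 45.9 and 24.5 CPM, with overlapping intervals for the HFD libraries (from 35.3 CPM in WT HFD and up to 37.8 CPM in KO HFD). The *Sod3* pairs in dendritic-like cells (2.65, 0 and 21.2 CPM, where 0 UMIs, read as up to 3 counts, allow up to 6.67 CPM) and endothelial-like cells (8.38, 7.33 and 23.9 CPM) rested on *Dcn*-bearing cells. Without these cells no *Sod3* UMI was left in dendritic-like cells and 0, 2 and 2 UMIs in endothelial-like cells.

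*Hmox1* in cycling-like cells was at 55.2, 64.8 and 416 CPM, and *Srxn1* at 2.51, 10.8 and 34.2 CPM, both higher in KO HFD than in WT HFD by the rule, where 2.97% of genes were higher. A single KO HFD cell held 416 of the 474 *Hmox1* UMIs (87.8%) and 27 of the 39 *Srxn1* UMIs (69.2%). Without it the KO HFD values were 52.6 and 10.9 CPM, near those of WT HFD. That cell had 35763 UMIs in all, among them 1445 of *Ftl1*, 725 of *Fth1*, 27 of *Txnrd1*, 18 of *Gclm*, 43 of *Lyz2*, 29 of *Cd68* and 11 of *Mki67*. Of other macrophage genes it had 10 UMIs of *C1qa*, 4 of *Adgre1* and 0 of *Itgam* and *Cd163*. It thus carried some macrophage transcripts but not others, together with proliferation transcripts and those of several NRF2 targets.

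Macrophage-like cells, the class with the most *Hmox1* and *Sod2* among those with at least 50 cells in every library, were in 3 clusters. The Folr2/Cd209f cluster held 99, 241 and 211 cells, the Mmp12/Retnla cluster 126, 111 and 221, and the Saa3/Alox15 cluster 8, 56 and 14. *Hmox1* was at 369, 328 and 398 CPM in the first, 185, 161 and 188 CPM in the second and 144, 112 and 93.8 CPM in the third. The clusters kept this order in every library. Neither the diet nor the genotype comparison of *Hmox1* met the rule in the first and second cluster, and the third had too few cells.

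*Sod2* was instead highest in the Saa3/Alox15 cluster, with 404, 451 and 272 CPM there, 215, 207 and 266 CPM in the Folr2/Cd209f cluster and 262, 217 and 231 CPM in the Mmp12/Retnla cluster. *Txnrd1* was at 120, 137 and 112 CPM in the Mmp12/Retnla cluster and at 50.1, 80.8 and 67.5 CPM in the Folr2/Cd209f cluster. The mixture of clusters differed between the libraries, which bears on each level given for all macrophage-like cells.

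In the Mmp12/Retnla cluster *Gclm* was at 33.9, 45.4 and 22.2 CPM and *Srxn1* at 13.9, 22.1 and 11.5 CPM. Both were lower in KO HFD than in WT HFD by the rule, with log2 ratios of -1.04 (-1.51 to -0.57) and -0.94 (-1.62 to -0.27), where 1.89% of genes were lower. The KO HFD values lay also below WT CD. Without the highest cell of each library *Gclm* was at 37.2 against 20.9 CPM and *Srxn1* at 19.4 against 10.7 CPM, so that *Srxn1* fell under the 20 CPM minimum and no longer met the rule. In the Folr2/Cd209f cluster *Gclm* was at 19.0, 40.1 and 54.7 CPM, where 1 KO HFD cell held 38 of 90 UMIs and the level without it was 31.8 CPM.

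**Figure D5:**
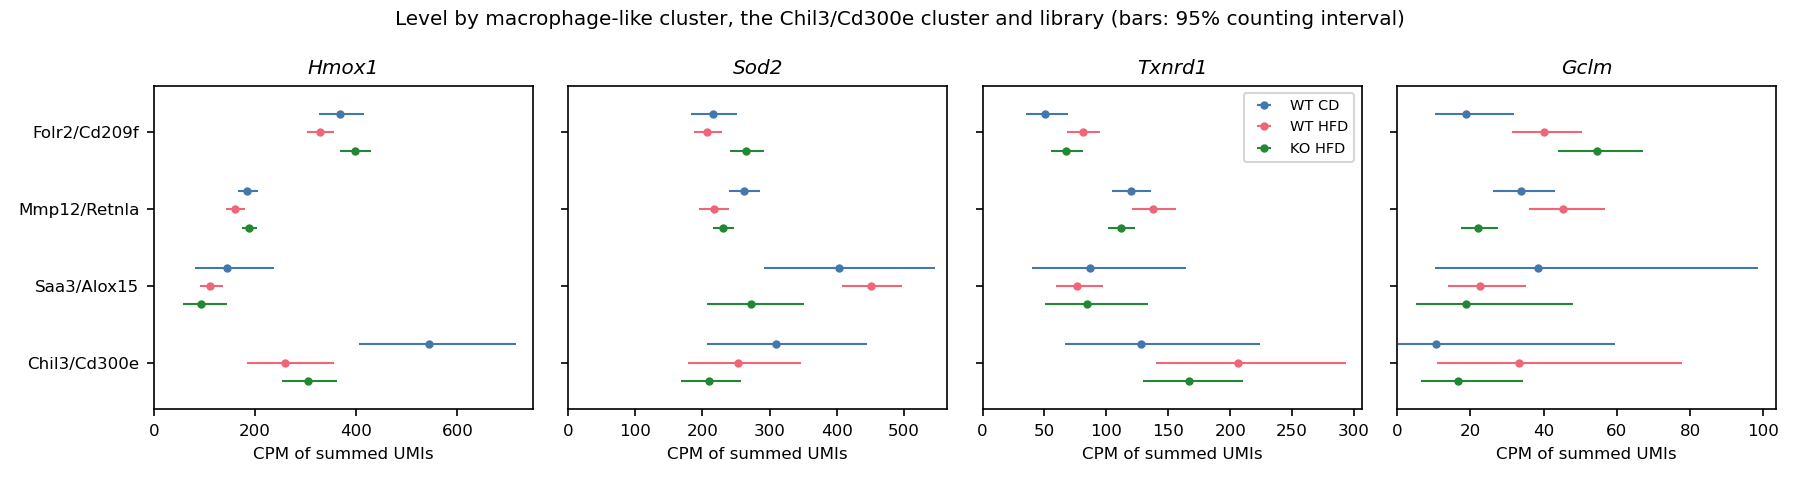
*Hmox1*, *Sod2*, *Txnrd1* and *Gclm* in the 3 macrophage-like clusters and in the unnamed Chil3/Cd300e cluster, with CPM of summed UMIs on the x axes (linear), points for the 3 libraries and bars for 95% counting intervals. *Hmox1* was at 328 to 398 CPM in the Folr2/Cd209f cluster against 161 to 188 CPM in the Mmp12/Retnla cluster.

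Other pathway genes in macrophage-like cells, named here after their values were seen, included several that were higher in WT HFD than in WT CD, where 5.70% of all measurable genes of these cells were higher. Among peroxidases and thioredoxin genes 6 of 18 measurable were higher, including *Prdx1* (332, 688 and 571 CPM), *Cat* (24.4, 42.6 and 45.0 CPM) and *Txn1* (346, 551 and 447 CPM). Of the glutathione genes 2 of 11 were higher, *Gsr* (20.1, 34.7 and 19.0 CPM) and *Mgst1* (30.8, 71.2 and 47.2 CPM), and these same 2 were lower in KO HFD than in WT HFD, where 3.42% of genes were lower. Of the metal, iron and heme genes 1 of 8 was higher, *Blvrb* (168, 328 and 230 CPM), which encodes a biliverdin reductase, and of the NADPH oxidase and related genes 1 of 6, *Xdh* (42.0, 64.0 and 44.2 CPM). None of 10 NRF2 regulators and 8 NADPH-supplying enzymes was higher. In KO HFD against WT HFD *Prdx6* (71.0, 114 and 73.6 CPM) was also lower, 1 of the 18 peroxidases and thioredoxin genes.

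Because cluster proportions differed, *Prdx1* and *Blvrb* were also read within clusters, together with *Cat*. In the Mmp12/Retnla cluster *Prdx1* was at 302, 874 and 466 CPM and *Blvrb* at 84.3, 173 and 99.0 CPM, highest in WT HFD by the rule against both other libraries, while *Cat* was at 25.2, 25.04 and 38.1 CPM. In this cluster 3.27% of genes were higher in WT HFD than in WT CD and 1.89% lower in KO HFD than in WT HFD. In the Folr2/Cd209f cluster *Prdx1* was at 411, 658 and 825 CPM and *Cat* at 20.3, 55.9 and 60.2 CPM, with WT CD lowest, and *Blvrb* was at 370, 464 and 493 CPM, which did not meet the rule. The *Prdx1* order of the HFD libraries was thus opposite in these clusters, and the difference was not tested.

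Genes with the most similar distribution were found by Pearson's r of log2(CPM + 1) over 28 sums of a class and library from 10 classes, leaving marker genes out. These sums share libraries and classes, so r is a description. *Sod3* was nearest to *Ikbip* (r = 0.93), *Bgn* (0.93) and *Loxl1* (0.92), of which *Bgn* encodes the matrix proteoglycan biglycan and *Loxl1* a collagen and elastin cross-linking enzyme. Among the genes nearest to *Gpx3* were *Abca8b* (0.93) and *Rian* (0.90).

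Among the genes nearest to *Hmox1* were *Colgalt1* (0.86) and *Ftl1* (0.86). *Sod2* was nearest to *Kcnk13* (0.89), *F10* (0.88) and *Msr1* (0.87), *Txnrd1* to *Eif4a1* (0.89), *Zfand5* (0.86) and *Egr2* (0.85), and *Nqo1* to *Galnt18*, *Mical2* and *Ptn* (0.89 each). *Gclm* was nearest to *Rab14* (0.93), *Fubp3* (0.92) and *B230219D22Rik* (0.91), *Sod1* to *Spata6* (0.88), *Rapgef2* (0.87) and *Mapk3* (0.85), and *Srxn1* to *Txndc17* (0.78), *Ncln* (0.77) and *Slc25a24* (0.76). *Gclc* had the lowest leading value, 0.73 with *Wdr48*, followed by *Mn1* and *Srebf1* (0.72 each).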

How the data were processed

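The deposited files are raw UMI counts per gene and barcode, which the authors made with Cell Ranger from 10x 3′ libraries on mm10; the labels' processing notes give version 6.1.1 and the file header 6.1.0. All 12275 deposited barcodes were used.

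Counts were scaled to 10000 per cell and log-transformed. Cells were clustered with scanpy 1.11.5 (2000 variable genes without the 126 listed genes, 30 principal components, 15 neighbours, Leiden resolution 1, seed 0) into 29 clusters, of which 3 with 410 cells stayed unnamed. FAP states came from k-means (5 states, 10 principal components, 50 starts). Scrublet marked 1.26, 1.09 and 1.33% of barcodes as doublets, which were kept. Levels are CPM of counts summed per class and library, with 95% exact Poisson intervals, log2 ratios have exact binomial intervals and shares of cells have exact Clopper-Pearson intervals. Shares were also read after thinning cells to 3000 UMIs, leaving out shallower cells (67, 35 and 57 FAPs, 13, 12 and 17 B-like, 74, 14 and 14 MuSC-like and 14, 13 and 11 lymphatic-like cells). With 1 library per group no p-value was computed. A log2 ratio is the CPM of the first named library over that of the second.

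The 10 genes, the pathway lists and the rules were chosen with earlier results of these data known. Named genes were all 10, *Thbs1*, the 3 most abundant genes of each list in FAPs, listed genes that differed in FAPs and the 3 genes nearest to each of the 10 by correlation; macrophage-like pathway genes and the preparation genes fall outside this rule, and 2 of the nearest genes are not reported here. The alternatives were other clusterings, scalings and filters. The counting rule was tested on simulated data, but the outcome is not reported here and no statement above rests on it.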

Additional observations from a re-analysis of the deposited data

Results flagged for a closer look

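*Sod1* was singled out because it differed in opposite directions between classes in the same comparison, KO HFD against WT HFD. Its log2 ratio was -1.02 in B-like cells and 0.73 in lymphatic-like cells, and the difference between these ratios was not tested. The B-like class of KO HFD had 105 cells at a median of 5062 UMIs against 7382 in WT HFD, and its value no longer met the rule without the *Jchain*/*Igkc* cluster. Outliers among samples were not sought, as each group has 1 library.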

How the results depend on the processing

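No paired analysis was possible because each group is 1 library, and for the same reason no replicate could be left out. Depth limits *Nqo1* (48, 27 and 34 UMIs in FAPs), whereas *Gclc* was left uncounted there by the 20 CPM minimum alone. The number of genes that differed in FAPs between WT HFD and WT CD was 1 (*Gpx3*) and 0 with the mean over cells, at Leiden resolution 0.5, with the listed genes kept in the clustering, with the 5 states weighted equally and at 2-fold, the last added after the values were seen. *Gpx3* stayed lower in WT HFD under the 9 other ways to scale, filter or group the cells that could move the ratio, by 1.43-fold to 1.60-fold, and higher in KO HFD than in WT HFD by 1.19-fold to 1.32-fold. Outside FAPs the number of pairs for WT HFD against WT CD was 5, 2 with a minimum of 50 CPM and 3 without *Dcn*-bearing cells. For KO HFD against WT HFD it was 12, 4 with classes gated on marker UMIs and 3 without *Dcn*-bearing cells. The number of genes with the same highest class in every library was 3, 5 with TMM factors (edgeR 4.0.16) and 9 with classes of at least 50 cells in every library. The causes of these changes were not tested, beyond the fewer cells or genes that some settings count. Of the recomputed log2 ratios of the 10 genes in FAPs, 131 stayed within the counting interval of the reported value and 9 did not.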

Other observations

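The metallothionein *Mt1*, which binds zinc and copper and was named after its values were seen, was at 140, 183 and 637 CPM in endothelial-like cells and at 163, 165 and 645 CPM in lymphatic-like cells. KO HFD was the highest library in both classes by the rule, whereas in FAPs the levels were 1595, 1659 and 2134 CPM. Of all measurable genes, 2.12% in endothelial-like and 2.30% in lymphatic-like cells were higher in KO HFD than in WT HFD. *Dcn*, read for FAP RNA, was at 1103, 710 and 1481 CPM in these endothelial-like and at 477, 651 and 2268 CPM in the lymphatic-like cells, and its part in the *Mt1* levels was not tested.

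The unnamed Chil3/Cd300e cluster, of 17, 32 and 72 cells, had *Hmox1* at 545, 260 and 304 CPM. In WT CD 1 cell held 31 of its 51 *Hmox1* UMIs, and the level without it was 222 CPM.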
